A study of Homo sapiens with 12 samples.

Results

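YAP1, WWTR1, TEAD1, CCN1, CCN2, ANKRD1, AMOTL1, AMOTL2, AJUBA and LATS2 are 10 of the 17818 genes in the deposited table, chosen by name as regulators and targets of the transcriptional co-activators YAP and TAZ. All 10 were found. They were followed in HCT116 and SW480, established human colorectal cancer cell lines, each with USP51 overexpressed (USP51-OE) or with a vector control (NC). USP51 encodes a deubiquitinase, which takes ubiquitin off other proteins. The labels give 3 libraries for each of the 4 groups, from cells grown in DMEM with serum and given no other treatment. They do not say whether the libraries came from separate cultures, or how the construct was delivered.

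YAP (the product of YAP1) and its paralog TAZ (the product of WWTR1) bind no DNA themselves and act through the TEAD family of DNA-binding factors. The Hippo kinases LATS1 and LATS2 phosphorylate YAP and TAZ, which holds them in the cytoplasm and marks them for degradation, so their activity is set largely at the protein level. When they are nuclear they switch on genes such as CCN1, CCN2 and ANKRD1, and also genes of their own inhibitors, among them LATS2 and AMOTL2. In intestinal epithelium the pathway is known for its part in regeneration.

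All values are group means that the authors had computed, since the columns of single libraries bear codes absent from the labels. They therefore come without a standard deviation or p-value, and whether a difference exceeds the spread between replicates was not tested. In the names of the means, C was taken as NC and E as USP51, which fixes the sign of each difference between them. The USP51 transcript had a mean of 40.8 TPM in HCT116 with USP51, against 0 TPM in HCT116 NC, and 25.7 TPM in SW480 with USP51, against 0.513 TPM in SW480 NC. TPM is a level scaled to transcript length and depth. Mean total counts were between 15506686 and 15920306. Of 8 epithelial and colorectal markers, 6 reached 1 TPM in each group, with sums between 4917 and 10193 TPM. VIL1 was at or below 0.03 TPM in HCT116, KRT20 at or below 0.103 TPM in SW480 and LGALS4 at or below 0.227 TPM in every group. The summed means of 5 fibroblast markers, 4 of them in the table, lay between 0.16 and 0.337 TPM, those of 2 endothelial markers between 0.12 and 0.303 TPM, and those of 3 leukocyte markers between 0.203 and 2.42 TPM. Among these, only the leukocyte marker CD14 reached 1 TPM, at 2.25 TPM in SW480 with USP51 and 1.18 TPM in SW480 NC.

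Where the 10 genes stood in the vector-control cells of each line was examined first. Of the 10, 9 had a lower mean in HCT116 NC than in SW480 NC, and 6 of them by at least 1.5-fold on log2(TPM + 1). Over all 13033 genes with at least 1 TPM in either control group, 46.7% were lower in HCT116 and 22.6% by at least 1.5-fold. AMOTL1 was the member with a higher mean in HCT116, by more than 1.5-fold, as for 27% of all genes. The median log2 ratio of the 10 was -0.66, beside 0.08 over all genes. These 2 lines differ in origin, so the values describe the lines and no treatment.

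**Figure D1:**
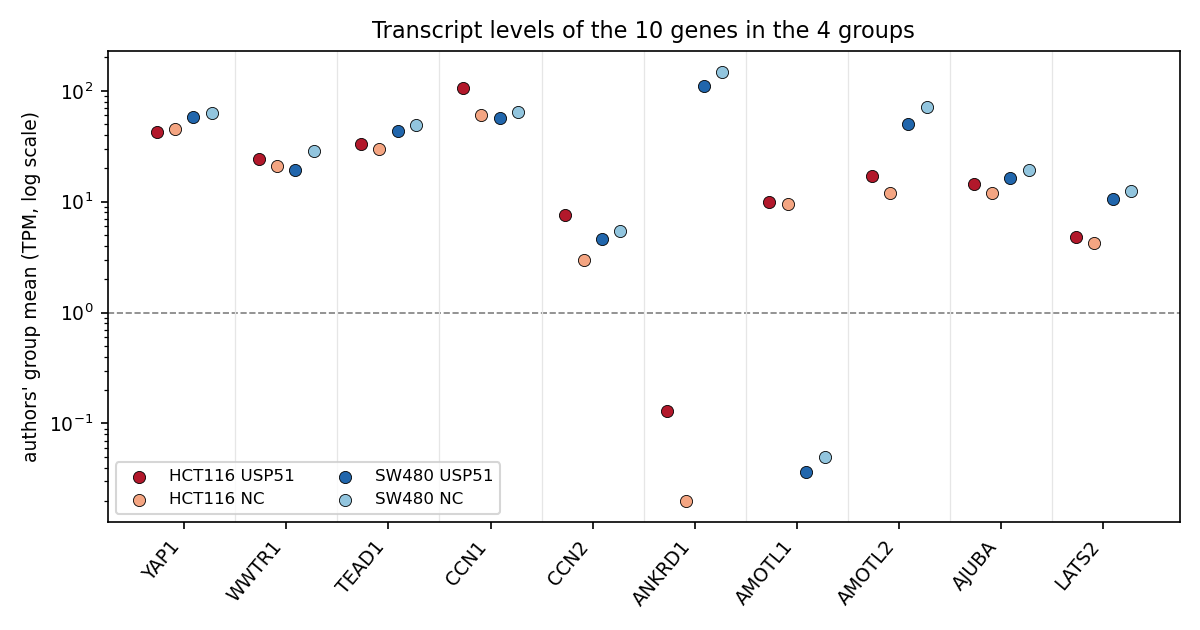
Authors' group means in TPM on a log axis for the 10 genes, with 4 points per gene, one per group, and a dashed line at 1 TPM. ANKRD1 lies below the line in both HCT116 groups and AMOTL1 in both SW480 groups, while the other 8 genes lie above it in all 4.

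The co-activators themselves were well expressed in both lines. YAP1 (chromosome 11, 102110447 to 102233424, GRCh38) had means of 45.0 TPM in HCT116 NC and 63.0 TPM in SW480 NC. That placed it above 74.8% of genes with at least 1 TPM in HCT116 NC and above 80.9% in SW480 NC. WWTR1 (chromosome 3, 149517235 to 149724788) had 21.1 TPM in HCT116 NC and 28.6 TPM in SW480 NC, so YAP1 made up 68.1% of the summed TPM of the pair in HCT116 NC and 68.8% in SW480 NC. TEAD1 (chromosome 11, 12674421 to 12944737), their DNA-binding partner, had 30.0 TPM in HCT116 NC and 49.3 TPM in SW480 NC. All 4 TEAD genes were expressed. TEAD3 supplied 21.6% of their summed TPM in HCT116 NC and 8.13% in SW480 NC, and TEAD4 supplied 28.4% in HCT116 NC and 38.1% in SW480 NC.

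ANKRD1 and AMOTL1 marked the largest contrasts between the lines among the 10. ANKRD1 (chromosome 10, 90912096 to 90921087) encodes an ankyrin-repeat nuclear protein, named in cardiac muscle and widely used as a YAP target. Its mean was 0.02 TPM in HCT116 NC, from 0.333 counts, against 147.0 TPM in SW480 NC, from 2330 counts. The ratio between the means as deposited was 7079, lower in HCT116, a size that rests on 0.333 counts. With a floor of 3 counts put in for the HCT116 mean the gene was 787-fold lower in HCT116, a size set by the floor. The nearer bound of the exact counting interval was smaller, at 639-fold. AMOTL1 (chromosome 11, 94706460 to 94876748) encodes angiomotin-like 1, a junctional scaffold that can bind YAP. It had 9.60 TPM and 871 counts in HCT116 NC, against 0.05 TPM and 1.33 counts in SW480 NC, a ratio of 645 between the means as deposited. With the SW480 mean rounded to 1 count, the 95% interval of the ratio ran between 154 and 34010, so its size is poorly fixed. In what follows, parentheses hold 95% exact Clopper-Pearson intervals for a ratio of counts, each divided by its group's total count. They treat each mean as the count of 1 library and cover counting error only. They narrow as counts rise, and the shares of all genes set beside them are not matched for count.

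The angiomotins thus made up different mixtures. AMOTL2 (chromosome 3, 134355345 to 134375417), both an inhibitor and a target of YAP, had 12.0 TPM in HCT116 NC and 71.3 TPM in SW480 NC. AMOT, the founding member of the family, had 2.47 TPM in HCT116 NC and 5.29 TPM in SW480 NC. AMOTL2 was 49.9% of the summed TPM of the 3 angiomotins in HCT116 NC and 93.0% in SW480 NC. The kinase gene LATS2 (chromosome 13, 20973036 to 21061586) had 4.22 TPM in HCT116 NC and 12.4 TPM in SW480 NC, and made up 31.8% of the summed TPM of LATS1 and LATS2 in HCT116 NC and 60.3% in SW480 NC. AJUBA (chromosome 14, 22971177 to 22982551), a LIM-domain protein that restrains LATS kinases, had 11.9 TPM in HCT116 NC and 19.2 TPM in SW480 NC. For AJUBA the difference between the lines fell short of 1.5-fold in CPM, counts divided by the total count, with a log2 ratio of -0.56 in place of -0.64. LATS2 was lower in HCT116 by a log2 ratio of -1.36 and AMOTL2 by -2.47.

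**Figure D2:**
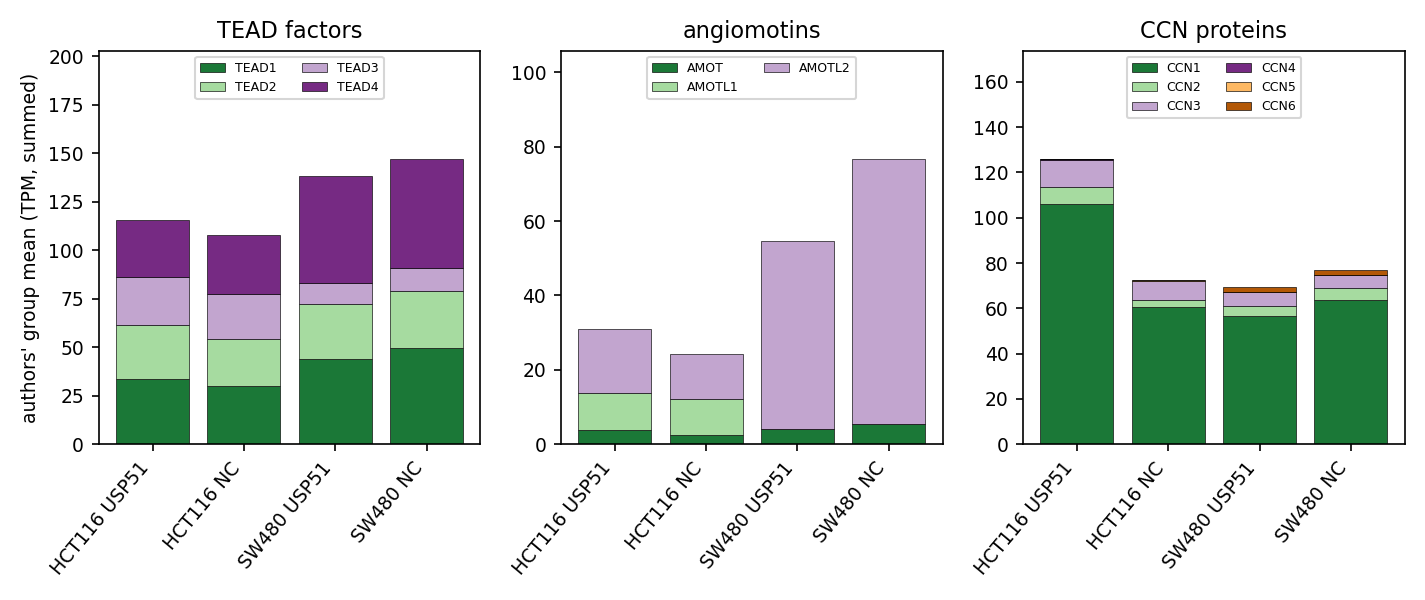
Stacked bars of the authors' group means in TPM for the TEAD factors, the angiomotins and the CCN proteins, with the 4 groups on the x axis of each panel and one colour per gene. AMOTL1 is visible only in the HCT116 bars, AMOTL2 makes up 93.0% of the SW480 NC bar, and CCN1 makes up over 80% of every CCN bar.

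In HCT116, the targets CCN1 and CCN2 were higher with USP51. CCN1 (chromosome 1, 85580761 to 85583950) encodes a secreted matricellular protein, formerly CYR61. Its mean was 105.9 TPM in HCT116 with USP51, against 60.5 TPM in HCT116 NC. The mean count was 2147 with USP51 and 1275 in NC, a ratio of 1.72 (1.60 to 1.84). CCN2 (chromosome 6, 131948176 to 131951372), formerly CTGF, a related secreted protein, had 7.66 TPM in HCT116 with USP51, against 3.01 TPM in HCT116 NC. The mean count was 160.0 with USP51 and 65.3 in NC, a ratio of 2.51 (1.87 to 3.41), wider because the gene was low. CCN1 and CCN2 were the 2 members at least 1.5-fold higher, with log2(TPM + 1) ratios of 0.80 and 1.11, and none was 1.5-fold lower. Among all 12393 genes measured in HCT116, 1.96% were at least 1.5-fold higher and 0.145% at least 1.5-fold lower.

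The regulators differed less. AMOTL2 had 17.2 TPM in HCT116 with USP51, against 12.0 TPM in HCT116 NC, a count ratio of 1.40 (1.25 to 1.57). WWTR1 had 24.1 TPM with USP51, against 21.1 TPM in NC, a ratio of 1.12 (1.03 to 1.22). TEAD1 had 33.4 TPM with USP51, against 30.0 TPM in NC, a ratio of 1.09 (1.04 to 1.15). YAP1 was the member with a lower mean, at 42.5 TPM with USP51, against 45.0 TPM in NC, a ratio of 0.926 (0.874 to 0.982).

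For 3 further members the counting interval included 1. AJUBA had 14.4 TPM in HCT116 with USP51 and 11.9 TPM in NC (1.12, 0.987 to 1.27). LATS2 had 4.77 TPM with USP51 and 4.22 TPM in NC (1.11, 0.927 to 1.34). AMOTL1 had 9.84 TPM with USP51 and 9.60 TPM in NC (0.997, 0.906 to 1.10), and its log2 ratio of 0.03 was -0.01 in CPM and -0.03 with TMM factors. ANKRD1 stayed below 1 TPM, at 0.13 TPM from 2 counts with USP51 and 0.02 TPM in NC, so no fold is given.

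Counted together, 8 of the 9 members measured in HCT116 had a higher mean with USP51, with a median log2 ratio of 0.18. Of all genes, 60.8% had a higher mean and the median was 0.04. The share for all genes depended on the scaling: it was 54.7% in CPM, 52.7% in FPKM and 48.5% in CPM with TMM factors. The members' count was 8 in FPKM and 7 in the other 2. The interval lay above 1 for 5 of the 9 members and below 1 for YAP1, against 17.1% and 11.7% of all genes.

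**Figure D3:**
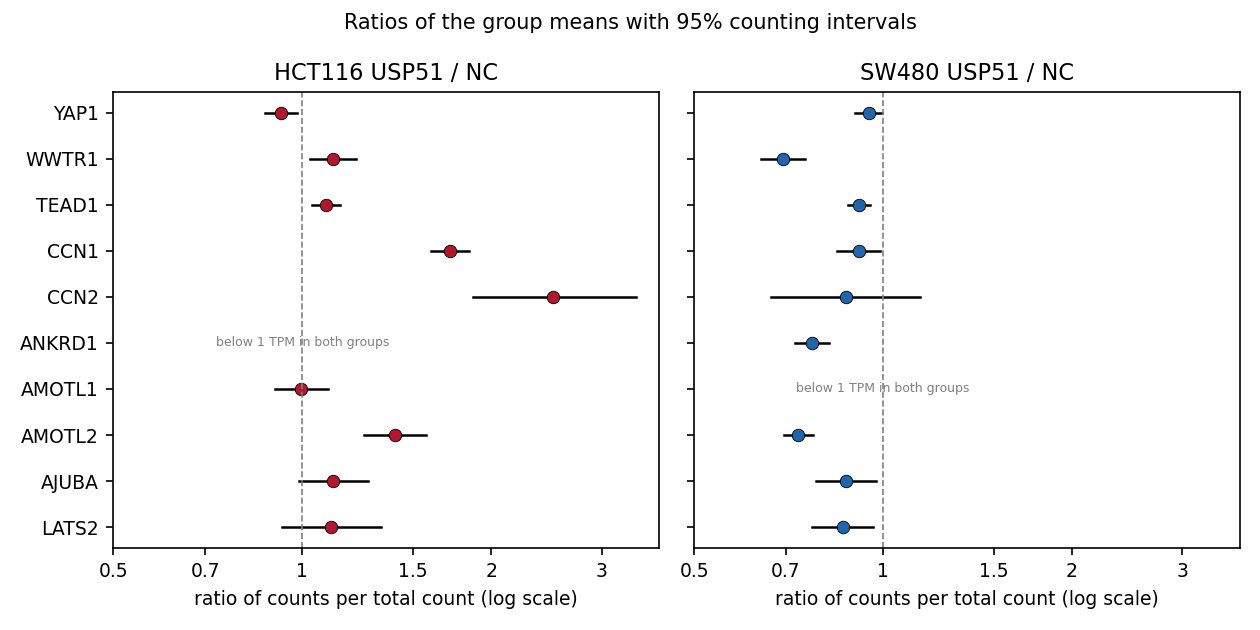
Ratios of counts per total count, USP51 over NC, on a log axis, for HCT116 on the left and SW480 on the right. Points are ratios of the authors' means and lines are 95% exact intervals for counting error. The intervals of CCN1, CCN2, AMOTL2, WWTR1 and TEAD1 lie right of the dashed line at 1 in HCT116, and every measured member lies left of it in SW480, where the interval of CCN2 crosses it.

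In SW480, all 9 measured members had a lower mean with USP51, none by 1.5-fold. The largest difference was in WWTR1, the TAZ gene, at 19.2 TPM in SW480 with USP51, against 28.6 TPM in SW480 NC. Its mean count was 1009 with USP51 and 1428 in NC, a ratio of 0.693 (0.639 to 0.752), and the log2(TPM + 1) ratio was -0.55. YAP1 differed little, at 57.8 TPM with USP51, against 63.0 TPM in NC (0.949, 0.904 to 0.996). WWTR1 made up 25.0% of the summed TPM of the pair with USP51 and 31.2% in NC.

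AMOTL2 and ANKRD1 came next. AMOTL2 had 50.6 TPM in SW480 with USP51, against 71.3 TPM in SW480 NC, a ratio of 0.733 (0.694 to 0.773). ANKRD1 had 109.9 TPM with USP51, against 147.0 TPM in NC, a ratio of 0.770 (0.723 to 0.819). ANKRD1 was among the more abundant transcripts of the line, above 89.0% of genes with at least 1 TPM in SW480 with USP51 and above 91.7% in SW480 NC.

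The other 5 members had ratios between 0.863 and 0.916. LATS2 had 10.5 TPM in SW480 with USP51 and 12.4 TPM in NC (0.863, 0.772 to 0.965). AJUBA had 16.3 TPM with USP51 and 19.2 TPM in NC (0.872, 0.781 to 0.974). TEAD1 had 43.8 TPM with USP51 and 49.3 TPM in NC (0.916, 0.879 to 0.955). CCN1, at 56.5 TPM with USP51 and 63.7 TPM in NC, had a ratio of 0.915 (0.846 to 0.989). CCN2 had 4.60 TPM with USP51 and 5.41 TPM in NC, and its interval included 1 (0.872, 0.663 to 1.15). AMOTL1 was below 1 TPM in both SW480 groups, at 0.0367 TPM with USP51 and 0.05 TPM in NC.

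The median log2 ratio of the 9 in SW480 was -0.22, beside -0.04 over all 12175 genes measured. Of all genes, 61.1% had a lower mean in TPM, 49.8% in CPM, 49.3% in FPKM and 47.3% with TMM factors. All 9 members were lower on each of these scales. The interval lay below 1 for 8 of the 9 members and for 14.2% of all genes, a share not matched for count. YAP1, with 3311 counts in SW480 NC, was among the 8 at a ratio of 0.949. At least 1.5-fold lower were 0.879% of all genes and at least 1.5-fold higher 0.534%, which is 65 genes higher and 107 lower. In CPM that split was 115 higher and 116 lower, and with TMM factors 122 higher and 113 lower.

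Across all genes the log2 ratios went with transcript length, and in opposite directions in the 2 lines. Spearman's rho was 0.207 over 12393 genes in HCT116 and -0.121 over 12175 genes in SW480, where all points share the same 2 means. With abundance, the average TPM of both groups, rho was -0.29 in HCT116 and 0.05 in SW480, so low genes tended to higher ratios in HCT116, and CCN2 was a low gene. The members were longer than most, with a median of 4.46 kb, beside 2.77 kb for all genes measured in HCT116. The part of length and abundance in the members' ratios was not tested. CCN2 was 2.06 kb long and CCN1 shorter still, and TEAD1, the longest at 9.14 kb, had log2 ratios of 0.15 in HCT116 and -0.17 in SW480. In bulk RNA, fewer cells with a transcript and less of it per cell cannot be told apart.

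Line dependence was described as the log2 ratio in HCT116 minus that in SW480, over the 8 members measured in both. All 8 differences were positive in TPM, with a median of 0.61, beside 0.08 over 11332 genes. Positive differences were not particular to the members, since most genes of the pathway lists described below had them too. Of all genes 65% had a positive difference in TPM, 53.5% in CPM, 51.5% in FPKM and 47.3% with TMM factors. CCN2 had the largest, 1.31, followed by CCN1 and AMOTL2, each 0.97, and WWTR1, 0.73. These 4 passed 1.5-fold, as did 3.95% of all genes, while 0.459% passed it in the other direction. The counting interval in HCT116 lay wholly above that in SW480 for 6 members, these 4 with TEAD1 and AJUBA, and for 10.4% of all genes. The reverse held for 8.12% of all genes and for no member. YAP1 had the smallest difference, 0.04, and its sign turned in CPM (-0.03, and -0.07 with TMM factors), in FPKM (-0.03) and with curated transcripts alone (-0.05). The difference itself has no test, since it rests on 4 means.

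**Figure D4:**
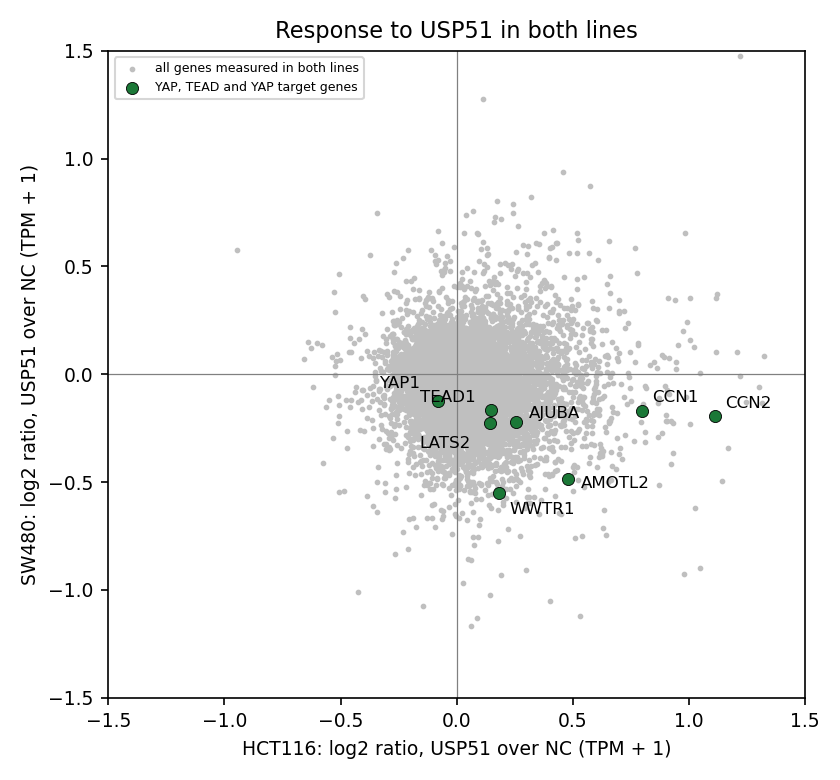
Log2 ratios of TPM + 1, USP51 over NC, in HCT116 on the x axis and SW480 on the y axis, with all genes measured in both lines in grey and the 8 members measured in both in green. The axes end at 1.5 in each direction and leave out 7 genes. The 7 members other than YAP1 lie to the lower right, higher in HCT116 and lower in SW480, and CCN2 lies farthest right.

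Promoter sequence is shown for some of the members whose levels set the lines or the responses apart. The 250 bases before the RefSeq start site (GRCh38.p14) were searched on both strands for GGAATG, the core of the TEAD site. RefSeq entries matched 8 of the 10 genes, with 11 start sites. CCN1 and TEAD1 were not searched. Of the 11, 5 start sites of 5 genes held a match (CCN2, ANKRD1, AMOTL2, AJUBA and YAP1). Over 35116 such windows of all genes, 11.9% held at least 1 match, 0.940% at least 2 and 0.0826% at least 3. Of the 2 AMOTL2 start sites the one with a match is shown, and its window lies inside the gene's span. The other, at the upstream end of the span, held no match. AMOTL1 stands beside AMOTL2 as the angiomotin below 1 TPM in SW480. The matches are in capitals, and each sequence runs 5′ to 3′ along the gene's strand.
CCN2, chr6:131951373-131951622, minus strand: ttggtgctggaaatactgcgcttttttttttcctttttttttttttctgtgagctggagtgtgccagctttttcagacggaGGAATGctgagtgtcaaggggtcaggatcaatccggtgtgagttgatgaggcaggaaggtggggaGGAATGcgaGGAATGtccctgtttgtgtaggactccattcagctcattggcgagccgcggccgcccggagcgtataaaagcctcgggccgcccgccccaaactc
ANKRD1, chr10:90921088-90921337, minus strand: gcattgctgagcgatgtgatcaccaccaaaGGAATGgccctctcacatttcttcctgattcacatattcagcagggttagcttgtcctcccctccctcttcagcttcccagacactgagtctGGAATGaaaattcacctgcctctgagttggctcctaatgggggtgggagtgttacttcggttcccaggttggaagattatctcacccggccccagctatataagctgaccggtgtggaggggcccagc
AMOTL2, chr3:134374448-134374697, minus strand: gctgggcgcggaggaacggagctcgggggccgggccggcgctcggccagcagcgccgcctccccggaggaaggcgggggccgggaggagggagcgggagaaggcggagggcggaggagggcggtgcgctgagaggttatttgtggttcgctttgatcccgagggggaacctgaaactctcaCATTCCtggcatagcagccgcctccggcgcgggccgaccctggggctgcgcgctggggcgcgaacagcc
AMOTL1, chr11:94768106-94768355, plus strand: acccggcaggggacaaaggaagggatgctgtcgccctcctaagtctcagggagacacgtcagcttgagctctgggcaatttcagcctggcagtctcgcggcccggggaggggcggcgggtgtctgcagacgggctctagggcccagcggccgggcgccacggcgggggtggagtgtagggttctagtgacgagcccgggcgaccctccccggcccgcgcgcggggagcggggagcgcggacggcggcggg

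CCN2 held 3 matches, which begin 169, 104 and 95 bases before the start. ANKRD1 held 2, at 220 and 128 bases, and the AMOTL2 window held 1, at 69 bases on the other strand. No GGAATG is in the AMOTL1 window. That window lies inside the gene's span of 94706460 to 94876748, and the sequence before the upstream end of the span was not searched. The same holds for the WWTR1 windows, which lie inside the span of WWTR1. ANKRD1 also held 1 match to TGANTCA, the AP-1 site, at 195 bases, as did 6.57% of all windows. None of the 11 windows held a CArG box, the site of SRF, found in 1.16% of all windows. A match is a run of letters and was not tested for binding. CCN2 and ANKRD1, with the most matches among the 8 searched, were among the 9 of 10 members lower in HCT116 NC than in SW480 NC. CCN2 had 3.01 TPM in HCT116 NC and 5.41 TPM in SW480 NC, a log2 ratio of -0.68, while ANKRD1 was close to 0 in HCT116 NC. Genes without a match in the windows searched differed between the lines as well. Their log2 ratios were 3.34 for AMOTL1, -1.36 for LATS2 and -0.42 for WWTR1. Whether matches go with level was not tested.

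Other genes of the pathway were read from lists of names. Beside each count stand the shares of all genes given above, 60.8% higher in HCT116 and 61.1% lower in SW480 in TPM, and nearer to even in CPM, in FPKM and with TMM factors. Of 20 Hippo kinases and scaffolds, 19 were measured in each line. In HCT116 with USP51, 16 of the 19 had a higher mean and 3 a lower one, with a median log2 ratio of 0.11 and none past 1.5-fold. In SW480 with USP51, 2 were higher and 17 lower, with a median of -0.13 and none past 1.5-fold. With TMM factors 15 of 20 were higher in HCT116 and 18 of 20 lower in SW480. AMOT differed most in both lines. It had 3.88 TPM in HCT116 with USP51 and 2.47 TPM in HCT116 NC, a count ratio of 1.53 (1.27 to 1.85), and passed 1.5-fold with a pseudocount of 0.1. In SW480 it had 4.05 TPM with USP51 and 5.29 TPM in NC (0.757, 0.650 to 0.882), but with curated transcripts alone that log2 ratio of -0.32 was 0.04.

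The other TEAD genes and the vestigial-like cofactors, which compete with YAP for TEAD, were nearly level. Of 7 listed, 4 were measured, with medians of 0.12 in HCT116 and -0.05 in SW480. In SW480 all 4 were lower in TPM, and 2 of 4 in CPM, in FPKM and with TMM factors. TEAD2 had 28.0 TPM in HCT116 with USP51 and 23.9 TPM in HCT116 NC (count ratio 1.14, 1.004 to 1.29). TEAD3 had 11.2 TPM in SW480 with USP51 and 11.9 TPM in SW480 NC (0.964, 0.826 to 1.12).

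Of 20 other reported YAP targets, 16 were measured in each line. In HCT116 with USP51, 13 were higher and 3 lower, with a median of 0.11, beside 9 higher and 6 lower in FPKM and 12 higher and 6 lower with TMM factors. IGFBP3, a secreted binding protein of insulin-like growth factors, was the gene past 1.5-fold, at 1.46 TPM from 34.7 counts with USP51 and 0.463 TPM from 11.3 counts in NC (3.25, 1.61 to 7.09). It was measured only because it reached 1 TPM with USP51, the group in which it was higher, and in FPKM, at 0.953 with USP51 and 0.307 in NC, it was left out as low. In SW480, where IGFBP3 was abundant, it had 106.5 TPM with USP51 and 116.3 TPM in NC. In SW480 with USP51, 4 targets were higher and 12 lower, with a median of -0.12, and with TMM factors 4 higher and 14 lower. NT5E, the surface nucleotidase CD73, differed most there, at 7.12 TPM with USP51 and 9.48 TPM in NC (0.772, 0.655 to 0.909). It was lower in HCT116 too, at 16.3 TPM with USP51 and 19.0 TPM in NC.

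AP-1 factors often sit beside TEAD on enhancers, and SRF with its MRTF cofactors shares targets with YAP. Of 8 AP-1 genes, 7 were higher in HCT116 with USP51 and 1 lower, with a median of 0.17. In SW480, 1 was higher and 7 lower in TPM, with a median of -0.16, but 3 were higher and 5 lower in CPM, in FPKM and with TMM factors. In HCT116 6 were higher with TMM factors. JUN had 53.4 TPM in HCT116 with USP51 and 36.5 TPM in NC (1.44, 1.33 to 1.55). In SW480 JUN was level, at 105.2 TPM with USP51 and 106.6 TPM in NC, and its log2 ratio of -0.02 was 0.03 in CPM, 0.04 with TMM factors and 0.03 in FPKM. FOSL1 was lower in both lines, at 114.8 TPM in HCT116 with USP51 and 145.6 TPM in NC, and at 235.3 TPM in SW480 with USP51 and 317.1 TPM in NC.

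Of 18 genes of the SRF and MRTF list, 17 were measured. In HCT116, 15 were higher with USP51 and 2 lower, with a median of 0.09. In SW480, 2 were higher and 15 lower, with a median of -0.21. In CPM, in FPKM and with TMM factors, 14 were higher and 3 lower in HCT116, and 3 higher and 14 lower in SW480. THBS1, thrombospondin 1, had 5.00 TPM in HCT116 with USP51 and 2.85 TPM in NC (1.70, 1.41 to 2.07). It was past 1.5-fold in TPM but not in FPKM (log2 ratio 0.56) or with curated transcripts alone (0.31). MYL9, a myosin light chain gene, had 10.5 TPM in SW480 with USP51 and 14.6 TPM in NC (0.741, 0.633 to 0.865), and 43.4 TPM in HCT116 with USP51 and 31.9 TPM in NC (1.34, 1.22 to 1.46). The log2 ratio in HCT116 minus that in SW480 was positive in TPM for 19 of 19 Hippo kinases and scaffolds and 16 of 17 genes of this list. It was positive for 7 of 8 AP-1 genes, 13 of 15 other YAP targets and 3 of 4 other TEAD and vestigial-like genes. With TMM factors these counts were 17 of 20, 14 of 17, 6 of 8, 14 of 17 and 3 of 4.

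**Figure D5:**
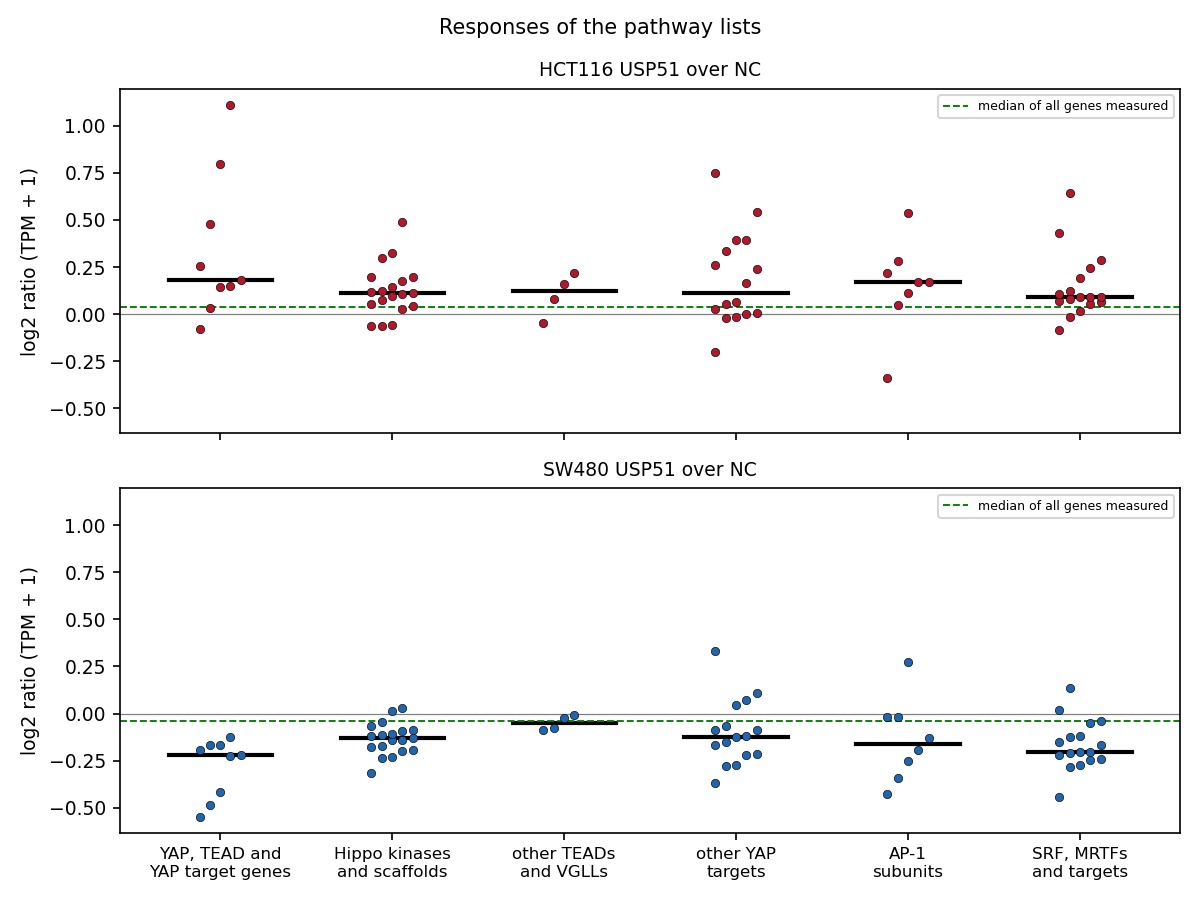
Log2 ratios of TPM + 1, USP51 over NC, for the measured genes of 6 lists, with HCT116 above and SW480 below. Each point is a gene, black bars are list medians and the green dashed line is the median of all genes measured, at 0.04 in HCT116 and -0.04 in SW480. The highest point in HCT116 is CCN2 and the lowest in SW480 is WWTR1.

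Of the remaining CCN genes only CCN3 reached 1 TPM in HCT116. It had 12.2 TPM in HCT116 with USP51 and 8.73 TPM in HCT116 NC (1.37, 1.14 to 1.65), and 6.11 TPM in SW480 with USP51 and 5.73 TPM in SW480 NC (1.10, 0.864 to 1.40). The summed TPM of the 6 CCN genes was 125.9 in HCT116 with USP51 and 72.5 in HCT116 NC, and 69.4 in SW480 with USP51 and 77.1 in SW480 NC.

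Genes with the profile nearest to that of CCN1 were sought over the 4 means of log2(TPM + 1), centred per gene, among 11003 genes with at least 1 TPM in all groups. They were IGF2, SPTSSB and SLC1A3, at distances between 0.09 and 0.13 on the log2 scale. IGF2, for example, had 10.9 TPM in HCT116 with USP51 and 5.45 TPM in HCT116 NC, and 5.00 TPM in SW480 with USP51 and 6.25 TPM in SW480 NC. ANKRD1 itself is below 1 TPM in HCT116, so genes as low there as ANKRD1 were outside this search. Of the genes searched, TUBB2B, SLC2A3 and VIM came closest to it, at distances of 0.69 to 1.12. VIM, the mesenchymal filament gene vimentin, had 2.28 TPM in HCT116 with USP51 and 1.58 TPM in HCT116 NC, against 731.5 TPM in SW480 with USP51 and 732.5 TPM in SW480 NC. With 4 points per gene, such likeness is a description only.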

How the data were processed

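RNA was isolated with TRIzol and sequenced on a BGISEQ machine, per the labels' protocols. TopHat, DESeq 1.32.0 and hg38 are named in the submitters' processing notes, without roles. How reads were counted, and whether by strand, is not given in the sources used here. There are 84345 deposited transcript rows with, per the file headers, estimated counts not divided by depth, TPM and FPKM as the authors' means per group. Another 36 columns, of single libraries, match no label and were not used. The labels' 12 libraries therefore give 4 values per gene.

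Transcripts were summed per gene identifier, and 17672 of 17818 genes had a symbol in the RefSeq table of GRCh38.p14. Log2((TPM + 1)/(TPM + 1)) was taken where a gene reached 1 TPM in either group, and 1.5-fold on this scale, which understates differences of low genes, was the rule of size. Count ratios used means rounded to whole numbers, with intervals from scipy 1.17.1 checked on simulated data. The simulated counts had counting error alone, so the check does not bear on spread between replicates or on means of estimated counts. A floor of 3 counts served for means that rounded to 0. Lengths came from deposited counts and FPKM. TMM factors came from edgeR 4.0.16 on rounded means. No edgeR test was run.

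The members and lists were chosen with earlier results of these data known. Named genes are the 10 members, up to 4 per list and comparison past 1.5-fold or else the one that differed most, and the 3 nearest in profile to CCN1 and to ANKRD1 among genes of at least 1 TPM in all groups. Transcript values and the choice of promoters to print were picked after values had been seen. In GENCODE 29, YAP1, WWTR1, CCN2 and AMOTL1 share exon bases with an antisense gene, whose reads cannot be told apart without strand. Reads of close paralogs can likewise be shared.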

Additional observations from a re-analysis of the deposited data

How the results depend on the processing

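Results were recomputed with a pseudocount of 0.1, without the filter, in CPM with and without TMM factors, in FPKM and with curated transcripts alone. IGFBP3 in HCT116 had no value in FPKM, nor had AMOT in HCT116 and THBS1 in SW480 with curated transcripts, since both groups were below 1. Counts for the other lists were recomputed as an alternative chosen after seeing the data. The counts of members higher or lower, and their medians, kept their direction in all 6. Members higher with USP51 numbered 7 to 9 in HCT116, and members lower numbered 9 or 10 in SW480. With curated transcripts alone AMOTL2, beside CCN1 and CCN2, was past 1.5-fold in HCT116 (log2 ratio 0.70 in place of 0.48). On that setting AMOTL2 was measured only because it reached 1 TPM with USP51, the group in which it was higher. Its main curated row, NM_016201.4, had 1.61 TPM in HCT116 with USP51 and 0.543 TPM in HCT116 NC. Curated rows held 9.40% of its TPM with USP51 and 5.02% in NC, so this value rests on a small part of the gene. Of 333 recomputed single values, 10 changed sign, and none of these was past 1.5-fold. They belong to AMOTL1 in HCT116, JUN and AMOT in SW480 and the difference between the lines for YAP1.

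Counts over all genes moved more. With a pseudocount of 0.1, 501 genes were at least 1.5-fold higher and 51 lower in HCT116, 150 higher and 225 lower in SW480, and 92 had a response lower in HCT116 than in SW480. That last count was 94 without the filter, 90 with TMM factors and 97 with curated transcripts. In CPM 115 genes were higher in SW480, and 122 with TMM factors. In FPKM 143 were higher in HCT116, 59 lower in SW480, and 242 had a higher response in HCT116. With curated transcripts 48 were lower in HCT116 and 162 lower in SW480. The cause was not tested.

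No paired analysis was possible because the columns used are group means and carry no replicate number. For the same reason the fits that leave out 1 replicate were not run. Counting error limits CCN2, at 65.3 to 160.0 counts per mean, and leaves no fold of USP51 over NC for ANKRD1 in HCT116 and AMOTL1 in SW480.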

Other observations

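The transcript rows behind 3 of the genes were uneven, in values estimated by the authors from reads that transcripts share. AJUBA has 3 rows. NM_198086.3 had 4.13 TPM in HCT116 with USP51 and 1.53 TPM in HCT116 NC, while NM_032876.6 had 10.1 TPM with USP51 and 10.2 TPM in NC. In SW480 NM_032876.6 was lower, at 9.91 TPM with USP51 and 12.5 TPM in NC, as was the scarce NM_001289097.2, at 0.227 TPM with USP51 and 0.85 TPM in NC, while NM_198086.3 had 6.18 TPM with USP51 and 5.86 TPM in NC. For AMOTL2, curated rows held 9.40% of the TPM in HCT116 with USP51, 5.02% in HCT116 NC, 16.6% in SW480 with USP51 and 15.4% in SW480 NC, so that most of its signal was assigned to predicted transcripts.

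YAP1 was spread over 16 rows, of which NM_001130145.3 and NM_001195044.2 were the most abundant. NM_001130145.3 had 12.9 TPM in HCT116 with USP51 and 13.2 TPM in HCT116 NC, against 11.6 TPM in SW480 with USP51 and 13.6 TPM in SW480 NC. NM_001195044.2 had 5.70 TPM in HCT116 with USP51 and 7.00 TPM in HCT116 NC, against 17.6 TPM in SW480 with USP51 and 16.2 TPM in SW480 NC. The order of these rows thus differed between the lines. With 1 mean per group and shared exons, these splits have no error estimate.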
